A study of Mus musculus with 6 samples.

Results

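The miR-200 family hairpins Mir200b, Mir200a, Mir429, Mir200c and Mir141 were examined in 393P_ZEB1 and 393P_vector cells. The members were the 5 rows of the count tables that carry these names, of 24214 counted features and of 729 microRNA hairpin features in all, and every member is accounted for below. 393P is an epithelial lung adenocarcinoma (LUAD) cell line of the mouse, labelled as strain C57BL/6. One set of transfectants carried a ZEB1 expression vector (393P_ZEB1, 3 samples) and the other carried the empty vector (393P_vector, 3 samples), and both were grown in RPMI-1640 medium with 10% FCS. Total RNA was made into SOLiD total RNA libraries, and reads were counted per RefSeq feature on the mouse genome build GRCm38. The sources used here do not say whether the transfectants were clones or pools, or whether the 3 samples of a group came from separate cultures, so p-values measure the spread between these samples only.

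The miR-200 family is processed from a pair of primary transcripts, each cut by Drosha in the nucleus into hairpins and then by Dicer into mature microRNAs of which the 3p strand is the usual guide. Its members are abundant in epithelial cells, where they repress the mRNAs of ZEB1 and ZEB2. ZEB1 and ZEB2 in turn bind E-boxes in the promoters of both clusters and repress them, a double-negative loop that sets the balance between epithelial and mesenchymal states in the epithelial-to-mesenchymal transition (EMT). The libraries were made from total RNA and not from size-selected small RNA, so a count here is a read placed on the genomic interval of a hairpin, and no mature microRNA was measured apart from its precursor.

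The seed, bases 2 to 8 counted from the 5′ end, decides which mRNAs a microRNA pairs with, and the mature 3p sequences are shown because they divide the family in a way that the genome does not. In RefSeq (GRCm38.p6), where all 5 members matched, Mir200b, Mir429 and Mir200c share one seed, shown in capitals.
mmu-miR-200b-3p: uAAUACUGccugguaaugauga
mmu-miR-429-3p: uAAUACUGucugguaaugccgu
mmu-miR-200c-3p: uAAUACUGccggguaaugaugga
Mir200a and Mir141 share the other seed.
mmu-miR-200a-3p: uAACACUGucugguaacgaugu
mmu-miR-141-3p: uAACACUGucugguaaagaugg
The seeds differ at a single base, U4C from miR-200b-3p to miR-141-3p, with positions counted from 1 at the 5′ end. Outside the seed the sequences are also close. Over the first 22 bases, miR-200b-3p and miR-200c-3p differ at 2 positions, as do miR-200a-3p and miR-141-3p, and no pair differs at more than 5.

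Each seed is represented in both clusters. On chromosome 4, minus strand, Mir200b (chr4:156055681-156055750) comes first in the direction of transcription, followed by Mir200a (chr4:156054896-156054985) and Mir429 (chr4:156053905-156053987). The hairpins are separated by 695 and 908 bp, and the cluster spans 1846 bp. On chromosome 6, also on the minus strand, Mir200c (chr6:124718322-124718390) precedes Mir141 (chr6:124717914-124717985) by 336 bp, in a cluster of 477 bp. In GENCODE M21, Mir200b and Mir200a lie in the intron of Gm13648, a noncoding transcript of 2 exons, whereas all 83 bases of Mir429 lie in one of its exons. All 3 also lie in an intron of a long Ttll10 isoform. Mir200c and Mir141 lie in introns of the noncoding transcript Gm15884, and 31 bases of Mir141 overlap the single-exon transcript Gm29008. All of these transcripts run on the strand of the hairpins.

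The start of Gm13648 lies 4052 bp upstream of Mir200b, and its RefSeq promoter window is shown because it holds the E-box letters that ZEB1 is known to bind. The 300 bases (chr4:156059753-156060052, GRCm38.p6, minus strand, 250 bases before to 50 after the start) are printed with the matches to CACCTG, or to its reverse complement CAGGTG, in capitals.
Gm13648 promoter: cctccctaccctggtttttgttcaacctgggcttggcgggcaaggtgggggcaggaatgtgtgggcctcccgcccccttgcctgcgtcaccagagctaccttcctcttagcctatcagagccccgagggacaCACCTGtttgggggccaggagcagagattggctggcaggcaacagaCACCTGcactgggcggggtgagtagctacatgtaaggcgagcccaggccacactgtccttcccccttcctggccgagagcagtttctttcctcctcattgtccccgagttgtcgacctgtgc
The window holds 2 matches, both CACCTG, beginning 118 and 72 bases before the start. Of 32851 RefSeq promoter windows of this length, 20.2% hold at least 1 match and 2.88% hold at least 2. The windows of the neighbouring genes Ttll10 and Phb2 hold 0 matches and that of Ptpn6 holds 1, CAGGTG. The Ttll10 window (chr4:156050768-156051067) lies downstream of the hairpins. It is not that of the long Ttll10 isoform that contains them, which starts at chr4:156059414 and whose window was not searched. A match is a run of letters and not a measured binding site. A window for Gm15884 was not used here.

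In 393P_vector cells, 4 of the 5 hairpins gave counts in every sample, and in 393P_ZEB1 cells the whole family gave 2 counts in all. Mir200c, the most counted member, had 78, 70 and 125 counts in vector replicates 1, 2 and 3, and 1, 0 and 0 counts in ZEB1 replicates 1, 2 and 3. Mir200b had 29, 26 and 54 counts in the vector samples and 0 in each ZEB1 sample. Both hairpins were therefore present in every vector library and at or next to 0 in every ZEB1 library, with no overlap between the groups. In CPM, 26.5% of the features tested had all ZEB1 values below all vector values. In bulk samples, fewer cells that carry an RNA and less of it per cell cannot be told apart.

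The other hairpins of chromosome 4 were counted less often but with the same pattern. Mir429 had 9, 8 and 13 counts and Mir200a had 8, 5 and 15 counts in the vector samples, and each had 0 in all ZEB1 samples. Mir141 stood apart, with 0 counts in all vector samples and 1, 0 and 0 counts in the ZEB1 samples. The 2 family counts in 393P_ZEB1 cells, 1 for Mir200c and 1 for Mir141, both came from replicate 1. These counts were drawn from totals of 57844355 to 79158012 per vector library and 54442450 to 61251074 per ZEB1 library.

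Scaled to CPM (counts per 1000000 of the library total, with library sizes adjusted by the trimmed mean of M-values), Mir200c was at 1.36 ± 0.158 (SD, n = 3) in vector and 0.00623 ± 0.0108 in ZEB1 cells. Mir200b was at 0.535 ± 0.106 CPM in vector cells, Mir429 at 0.150 ± 0.0126 and Mir200a at 0.136 ± 0.0480. The vector samples ran from 1.19 to 1.50 CPM for Mir200c and from 0.442 to 0.650 CPM for Mir200b. Each vector sample was thus nearer to the others of its group than to any ZEB1 sample. Vector replicate 3, which holds the most counts for every detected member, is also the deepest library. In CPM it was still the highest for Mir200c (1.50), Mir200b (0.650) and Mir200a (0.181), and for Mir429 its CPM fell between those of the other 2.

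**Figure D1:**
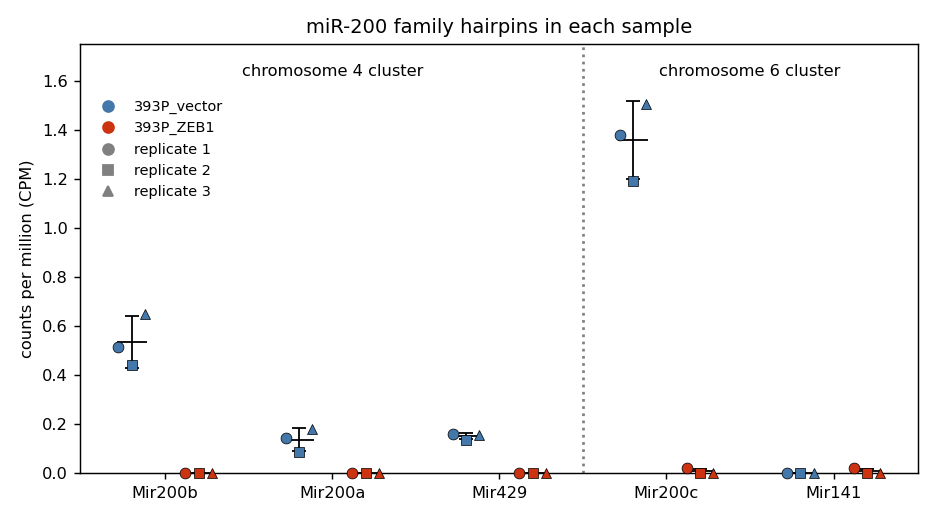
CPM of each hairpin in each of the 6 samples, by cluster, with the mean (wide dash) and SD (error bar) of each group of 3. Mir200c reached 1.19 to 1.50 CPM and Mir200b 0.442 to 0.650 CPM in the vector samples, and every ZEB1 sample sits at or next to 0, as does every sample for Mir141.

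The size of the decrease was bounded by depth. With a floor of 3 counts over the 3 ZEB1 libraries in place of 0, the CPM of Mir200b was 31.1-fold lower in 393P_ZEB1 cells. That of Mir429 was 8.57-fold lower and that of Mir200a 8.0-fold lower. These folds leave out the error of the vector count. The exact conditional binomial 95% interval includes it. Its upper end was 4.02% of the vector level for Mir200b, 15.3% for Mir429 and 16.4% for Mir200a. With its single ZEB1 count, Mir200c was 234-fold lower, with a 95% interval of 41.6 to 9273 from an exact conditional binomial test. These intervals and floors cover counting error only. No fold is given for Mir141, which was at or under the floor in both groups.

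Mir200c and Mir200b passed the filter on low counts and entered the test across 13892 features, edgeR's quasi-likelihood test with Benjamini-Hochberg adjustment. Mir200c had a log2 fold change of -7.43 (SE 0.54, adjusted p = 3.19e-05) and Mir200b one of -8.05 (SE 0.73, adjusted p = 0.000535). Without ZEB1 replicate 1, which holds the single count of Mir200c in that group, the log2 fold change of Mir200c was -9.42. Over the whole table, 19.3% of tested features were lower in 393P_ZEB1 cells at an adjusted p under 0.05 and 18.3% were higher, or 37.6% in either direction. Both hairpins passed the filter only through the vector group and so had to differ, and their 2 calls of 2 tested carry no weight as a count. The fitted log2 fold changes of hairpins at 0 depend on the prior count and are no bound.

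Mir200a, Mir429 and Mir141 did not pass the filter. When every feature with a count was kept, edgeR gave Mir200a a log2 fold change of -6.11 (adjusted p = 0.00362). Mir429 had one of -6.23 (adjusted p = 0.00171), and both were past the threshold. In that fit 2411 features were higher and 2625 were lower. Both hairpins were at 0 in every ZEB1 sample, so their fitted values depend on the prior count and are no bound. Their calls carry no weight as a count. Mir141 had 1.96 (adjusted p = 0.511) from its single count. In the exact two-sided permutation test of log2(CPM + 0.5), each member but Mir141 gave p = 0.1, the smallest that 3 against 3 samples allow, and Mir141 gave p = 1.0. The 4 detected hairpins had no overlap between groups, with all ZEB1 values below all vector values, which held for 26.5% of the features tested (the opposite held for 26.3%).

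Hairpins of one cluster are cut from one primary transcript, so their counts were also summed. The chromosome 4 cluster had 46, 39 and 82 counts in the vector samples and 0 in each ZEB1 sample. With the floor of 3 counts in place of 0 it was 47.7-fold lower, and the exact 95% interval reached up to 2.61% of the vector level. Its edgeR log2 fold change was -8.67 (SE 0.69, adjusted p = 0.000306). The chromosome 6 cluster, with the Mir200c counts above and the single Mir141 count, was 117-fold lower (95% interval 32.1 to 971), with a log2 fold change of -6.62 (SE 0.59, adjusted p = 9.85e-05), or -9.42 without ZEB1 replicate 1. Like the single hairpins, the cluster and family sums passed the filter only through the vector group and so had to differ. Neither cluster sum overlapped between the groups, which follows from this and also held in that direction for 26.5% of the features tested.

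Over both clusters, the family had 124, 109 and 207 counts in the vector samples and 2, 0 and 0 in the ZEB1 samples. The mean was 2.18 ± 0.320 CPM in vector and 0.0125 ± 0.0216 CPM in ZEB1 cells (n = 3 each). This is a 189-fold difference (95% interval 51.9 to 1562), with a log2 fold change of -7.30 (SE 0.57, adjusted p = 4.84e-05), or -10.10 without ZEB1 replicate 1. The counts left in 393P_ZEB1 cells came to 0.530% of the vector level, with an upper bound of 1.93%.

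Whether one cluster fell further than the other could not be tested at this depth. In 393P_vector cells the chromosome 6 cluster gave 1.70, 1.79 and 1.52 counts for each chromosome 4 count in replicates 1, 2 and 3. Its share of the family count was 62.9%, 64.2% and 60.4%, or 62.0% of 440 counts pooled (Wilson 95% interval 57.4 to 66.5%), so the proportion of the clusters was alike in the vector libraries. Of the 3 ZEB1 libraries, 2 had no family count at all. The log2 ratio of the clusters, with 0.5 added to each count, was 0.732 ± 0.117 in vector and 0.774 ± 1.34 in ZEB1 samples, a difference of 0.0418 (exact two-sided permutation p = 1.0). The sign of that difference changed with the pseudocount (-0.198 with 1 added) and with a sample left out (-0.0216 without vector replicate 3 and -0.732 without ZEB1 replicate 1).

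Within each cluster the hairpins were unequally counted. Mir200b held 65.3% of the 167 chromosome 4 counts in vector cells (Wilson 95% interval 57.8 to 72.1%), Mir429 18.0% (12.9 to 24.5%) and Mir200a 16.8% (11.9 to 23.2%). The share of Mir200b was between 63.0% and 66.7% in the 3 vector samples, and those of Mir429 and Mir200a were not separated by their intervals. Per kilobase of hairpin, Mir200c was at 19.96 ± 2.33 CPM per kb, Mir200b at 7.75 ± 1.53, Mir429 at 1.84 ± 0.154 and Mir200a at 1.52 ± 0.540 in vector cells. Mir429 and Mir200a did not differ beyond their spread, whereas the lowest sample of Mir200b lay above the highest of both, and the lowest of Mir200c above the highest of Mir200b.

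The contrast was widest on chromosome 6, where Mir141 had 0 of the 273 counts of its cluster in vector cells, which allows a share of up to 1.10% from 3 counts of the total (the Wilson 95% upper limit is 1.39%). The hairpins of this pair are shown with the 3p strand in capitals, since they lie 336 bp apart in one transcript and yet one was the most counted member and the other was not detected.
Mir200c: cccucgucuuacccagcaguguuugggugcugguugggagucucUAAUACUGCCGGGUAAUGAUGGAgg
Mir141: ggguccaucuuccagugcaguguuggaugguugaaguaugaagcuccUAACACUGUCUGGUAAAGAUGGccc
The hairpins are of like length, 69 and 72 bases. How reads that match more than one hairpin were assigned is not given in the sources used here, and its part in the unequal counts was not tested.

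Grouped by seed rather than by cluster, the family count of vector cells lay almost wholly on one side. Mir200b, Mir429 and Mir200c together had 116, 104 and 192 counts, and Mir200a with Mir141 had 8, 5 and 15. The AAUACUG seed thus held 93.5%, 95.4% and 92.8% of the family count in vector replicates 1, 2 and 3, or 93.6% of all 440 (Wilson 95% interval 91.0 to 95.6%). The split describes reads on hairpin precursors, not the mature strands that carry the seeds.

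Among all microRNA hairpins, 418 of 729 had no count in vector cells, Mir141 among them. Ranked by CPM per kb over 729 hairpin features, Mir200c was 41st, Mir200b 71st, Mir429 119th and Mir200a 129th. A count over 3, summed over the group, was reached by 219 hairpins in vector cells and 202 in ZEB1 cells. Of the 76 hairpins with at least 100 counts in vector cells, Mir200b and Mir200c were the 2 with at most 2 counts in ZEB1 cells. These cut-offs lie close to the counts of Mir200b (109 against 0) and Mir200c (273 against 1), so this is a description only. At lower levels the family had company, with 16 hairpins over 3 counts in vector cells and at 0 in ZEB1 cells, Mir200b, Mir429 and Mir200a among them, and 5 hairpins with the reverse pattern.

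The test across all features took in 118 hairpins, of which 5.93% were lower and 17.8% higher in 393P_ZEB1 cells. The other lower hairpins included Mir669i, with 42 summed counts in vector cells and 0 in ZEB1 cells. Mir669i has close copies in the genome, and the part of read assignment in its counts was not tested, as for the miR-200 hairpins.

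**Figure D2:**
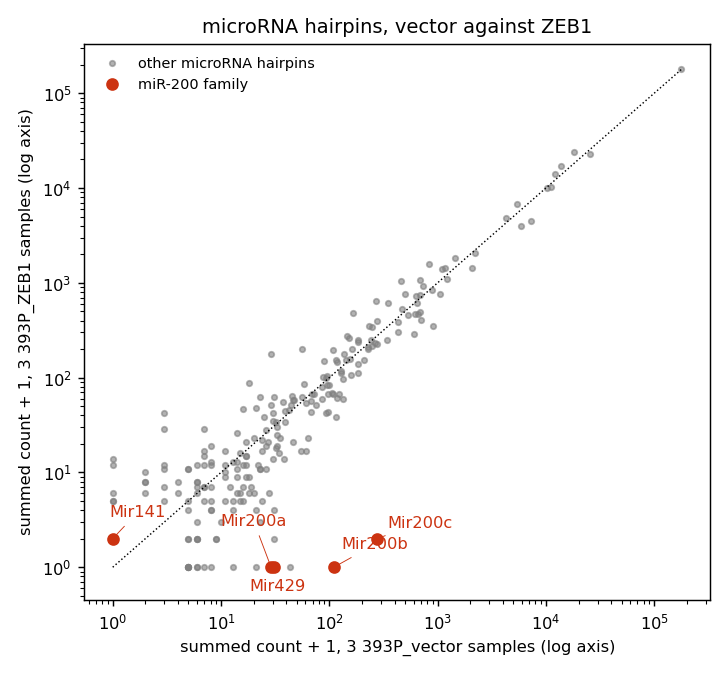
Summed counts of 237 microRNA hairpins over the 3 393P_vector samples (horizontal) and the 3 393P_ZEB1 samples (vertical), each plus 1, on log axes, where the dotted line marks equal counts. Most hairpins follow the line over several orders of magnitude, while Mir200c (273 against 1) and Mir200b (109 against 0) lie far below it.

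Of 20 other hairpins described in EMT, 7 were tested, and 4 rose and 0 fell, against 18.3% higher and 19.3% lower over all features tested. Their median log2 fold change was 1.06, against -0.02 for all features tested. Mir181a-1 rose by a log2 fold change of 2.06 (SE 0.38, adjusted p = 0.00401), from 0.285 ± 0.0702 to 1.19 ± 0.512 CPM. Mir221 rose by 1.41 and Mir222, its neighbour on chromosome X, by 1.11, and Mir155, a microRNA of immune and tumor cells, rose by 1.06. Mir183 and Mir182, which are cut from another epithelial cluster, had log2 fold changes of -0.92 (adjusted p = 0.166) and -0.22 (adjusted p = 0.569), neither past the threshold. Mir34a had 30 summed counts in vector cells and 1 in ZEB1 cells, and Mir206 had 12 against 0, but neither passed the filter. With every counted feature kept, Mir34a had a log2 fold change of -4.29 (edgeR adjusted p = 0.0121) and Mir206 one of -4.98 (adjusted p = 0.0553). Without ZEB1 replicate 1, 2 of the list were higher in place of 4.

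The genes nearest to each cluster were then read, since a change of the whole region would move the hairpins with it. Around the chromosome 4 cluster, 11 other features lay within 100 kb and 9 were tested, of which 0 were higher and 1 was lower (Fam132a, log2 fold change -2.11), with a median of -0.17. Over all features tested, 18.3% were higher and 19.3% lower. Ttll10, a polyglycylase gene whose counted interval lies 3088 bp from Mir429, had 0.194, 0.170 and 0.156 CPM in vector samples and 0.0187, 0.0360 and 0.0328 CPM in ZEB1 samples, from 34 and 5 summed counts. Its groups did not overlap, as for 26.5% of the features tested. Ttll10 did not pass the filter, and with every counted feature kept it had a log2 fold change of -2.48 (SE 0.52, edgeR adjusted p = 0.00551). On the other side the nearest feature, 9430015G10Rik at 54.2 kb, had a log2 fold change of -0.30 (adjusted p = 0.0697).

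Around the chromosome 6 cluster, 12 features lay within 100 kb and 10 were tested, of which 0 were higher and 6 were lower, with a median log2 fold change of -0.63. The shares over all features tested were 18.3% higher and 19.3% lower. Ptpn6, which encodes the phosphatase SHP-1 and ends 2328 bp from Mir200c, fell from 21.8, 23.3 and 23.5 CPM in vector samples to 2.92, 4.05 and 3.65 CPM in ZEB1 samples (log2 fold change -2.69, SE 0.16, adjusted p = 1.11e-05). Phb2, which encodes a prohibitin of the inner mitochondrial membrane and lies 969 bp from Mir141, had 169, 191 and 303 CPM in vector samples and 82.4, 133 and 120 CPM in ZEB1 samples (log2 fold change -0.98, adjusted p = 0.01997). Eno2, Tpi1, Atn1 and Emg1 were the others that fell, by 0.63 to 1.28 on the log2 scale. Features tested on chromosome 6 had a median log2 fold change of -0.36 (237 lower and 70 higher of 670), against 0.03 on chromosome 4 (122 lower and 143 higher of 856). The neighbours of the chromosome 6 cluster thus lay on a chromosome with more lower calls, and the difference between the neighbourhoods was not tested. The part of the region or chromosome in the level of the hairpins was not tested.

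**Figure D3:**
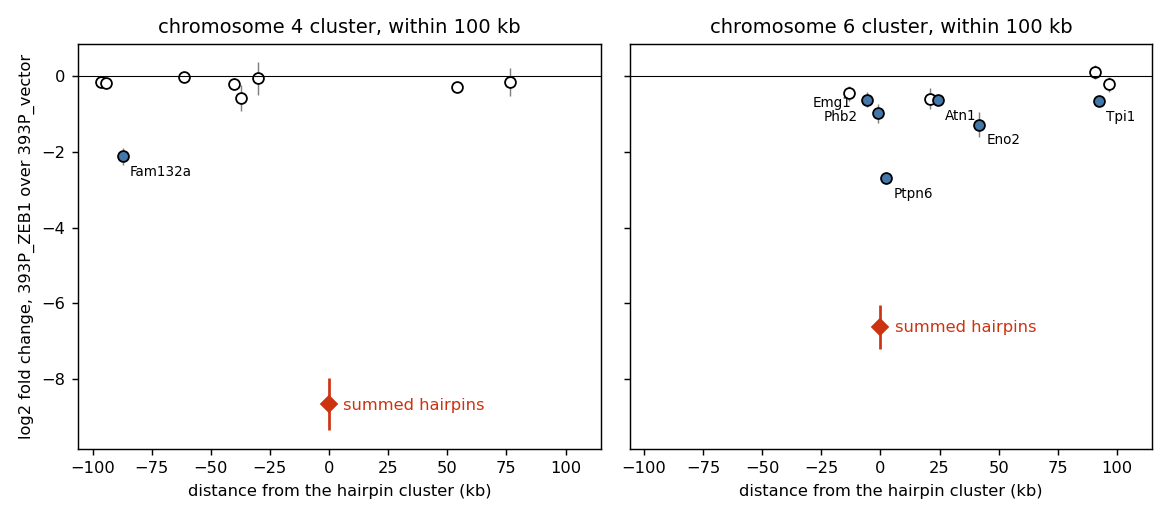
Log2 fold change (393P_ZEB1 over 393P_vector, bars are standard errors) of each tested feature within 100 kb of the chromosome 4 (left) and chromosome 6 (right) cluster, by distance in kb. Filled circles passed an adjusted p under 0.05, and the diamonds mark the summed hairpins of the cluster at -8.67 and -6.62. The lowest neighbour shown is Ptpn6 at -2.69, and Ttll10, which did not pass the filter, is not shown. The sums had to differ and their fitted values depend on the prior count, so their distance from the neighbours was not tested.

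Of the known repressors of miR-200 transcription, 10 genes were tested and 4 were higher and 1 was lower (median log2 fold change 0.13), against 18.3% higher and 19.3% lower over all features tested. Without vector replicate 3, 5 were higher and 2 were lower. Zeb1 rose from 21.2, 22.0 and 21.4 CPM in vector samples to 54.9, 48.9 and 51.3 CPM in ZEB1 samples (log2 fold change 1.26, SE 0.10, adjusted p = 6.06e-05), the direction that the labels give. It lies on chromosome 18, where tested features had a median log2 fold change of 0.64 (255 higher and 39 lower of 396). The part of the chromosome in its rise was not tested. Counts of the transgene and of the endogenous gene cannot be told apart, so the call of Zeb1 carries no weight in the count of repressors. Zeb2, its paralog, rose from 85.5 ± 4.36 to 148 ± 9.76 CPM (log2 fold change 0.80, SE 0.10, adjusted p = 0.000603). Twist1, an EMT transcription factor, rose by 2.21. Of the DNA methyltransferases on the list, Dnmt3a rose by 1.01 and Dnmt3b fell by 2.00 on the log2 scale.

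Of 14 genes listed as activators of the family or of epithelial identity, 12 were tested and 1 was higher and 5 were lower (median -0.26), against 18.3% and 19.3% of all features tested. Ovol2 and Ovol1, zinc finger repressors of Zeb1, fell by 4.68 and 4.66 on the log2 scale. Ovol1 went from 1.47, 1.26 and 1.43 CPM in vector samples to 0.0187, 0.0720 and 0.0655 CPM in ZEB1 samples. Grhl2, a grainyhead factor of epithelial genes, fell by 3.84, from 30.9 ± 6.33 to 2.15 ± 0.374 CPM. Elf3, an ETS factor of epithelia, fell by 2.85. Myb was the member that rose, by 1.55 from a low level (20 summed counts in vector cells and 50 in ZEB1 cells), and the call was lost without vector replicate 1 or 2, or without ZEB1 replicate 1 or 3.

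Described targets of the family were read as a list of 33 genes, of which 32 were tested. Of these, 12 were higher, 5 were lower and 15 did not pass the threshold, with a median log2 fold change of 0.30, and the whole-table shares were 18.3% higher and 19.3% lower. The 12 include Zeb1, the gene that was expressed, and Kif13a. For Kif13a and Ap1s2 the paper drew on predicted miR-200 targets, an EMT signature of human LUAD and qPCR. It first took them from regulators that were higher with ZEB1 in these same data. The calls of Zeb1 and Kif13a therefore carry no weight in the count. Foxf2, a forkhead factor, rose the most, from 11.7, 10.98 and 12.5 CPM in vector samples to 31.9, 36.6 and 29.2 CPM in ZEB1 samples (log2 fold change 1.47, SE 0.13, adjusted p = 9.56e-05). Jag1, a Notch ligand, rose by 1.28 and Cd274, which encodes PD-L1, by 1.02.

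Kif13a, which encodes a kinesin motor of endosomal vesicles, rose by 0.84 (SE 0.15, adjusted p = 0.00368), from 56.8, 53.0 and 40.4 CPM in vector samples to 84.9, 84.7 and 99.4 CPM in ZEB1 samples. Ap1s2, a subunit of the AP-1 clathrin adaptor, had 0.67 (SE 0.25, adjusted p = 0.0677) and did not pass, with 9.50 CPM in vector replicate 3 against 5.30 and 5.34 in replicates 1 and 2. Other described targets went the opposite way. Kdr, a VEGF receptor, fell by 2.51 on the log2 scale, Cfl2, a cofilin, by 1.60 and Gata3 by 0.94.

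To relate these genes to the printed seeds, the longest annotated 3′ UTR of each gene in GENCODE M21 was searched for the complement of seed bases 2 to 8, CAGTATT for the AAUACUG seed and CAGTGTT for the AACACUG seed. Of the 32 tested targets, 24 held at least 1 match, or 75.0%, against 30.6% of 12005 tested features with a 3′ UTR. CAGTATT was present in 21 and CAGTGTT in 10 of them. The list was drawn from described targets, which are often chosen for such matches, so its share is not independent evidence. A longer 3′ UTR has more room for a match, and length was not matched in these shares or in the medians that follow. The targets with a match had a median log2 fold change of 0.30 (9 higher, Zeb1 and Kif13a among them, and 4 lower of 24). Those without one had a median of 0.27. Over the 12005 features, those with a match had a median of 0.05 (827 higher and 623 lower of 3670), and those without one had a median of -0.05.

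Zeb2 held 4 CAGTGTT and 5 CAGTATT matches, as did Zeb1, and with 9 in all these genes held the most of the list, ahead of Ntrk2 and Qk with 6 each. One match in Zeb2, one in Foxf2, which rose, and one in Kdr, which fell, are shown with the match in capitals.
Zeb2 (chr2:44988106-44988123, minus strand): cagtgcatCAGTATTacg
Foxf2 (chr13:31631202-31631219, plus strand): gtggctctCAGTATTgtg
Kdr (chr5:75933085-75933102, minus strand): ttttgtatCAGTATTatg
The same 7 letters thus stand in genes that moved in opposite directions. Kif13a held 1 CAGTATT match, and neither Jag1 nor Ap1s2 held either word in the 3′ UTR that was searched. This says only that these letters are not in this window, and other forms of site were not searched. The paper cites evidence of functional miR-200 sites in the 3′ UTRs of both KIF13A and AP1S2. It also reports that ectopic miR-200 mitigated the ZEB1-induced expression of both genes.

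Of 21 genes that process microRNAs, 20 were tested and 5 were higher and 3 were lower (median 0.10), shares near the 18.3% and 19.3% of all features tested and so no result about the list. Drosha, which cuts hairpins from the primary transcript, was at 248 ± 19.6 CPM in vector and 250 ± 25.5 CPM in ZEB1 cells (log2 fold change 0.01, SE 0.12, adjusted p = 0.948), and its partner Dgcr8 had 0.24 (SE 0.14, adjusted p = 0.210). Xpo5, which exports hairpins, fell by 0.64 on the log2 scale, Eif2c2 (Argonaute 2) by 0.45 and Dicer1 by 0.33. Eif2c4 (Argonaute 4) rose by 2.34, from 0.493 ± 0.0455 to 2.50 ± 0.0188 CPM, Zcchc11, a terminal uridylyltransferase, by 0.81 and Ddx5, a helicase of the Drosha complex, by 0.41. These counts rest on single libraries, with 1 or 2 higher when vector replicate 1 or 2 or any ZEB1 replicate was left out, and 1 lower without vector replicate 1 or ZEB1 replicate 2.

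**Figure D4:**
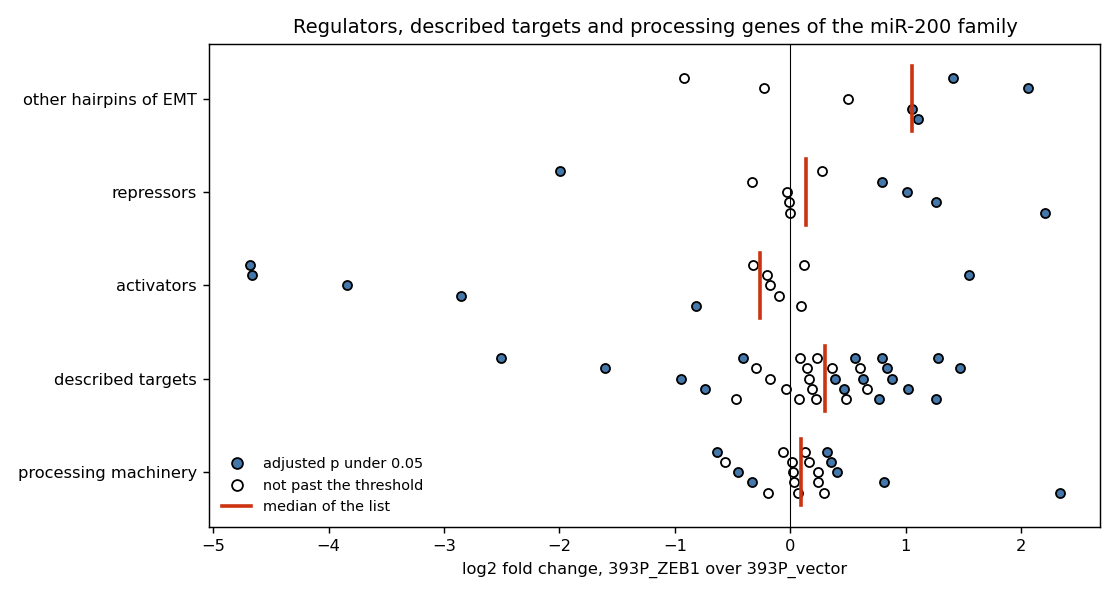
Log2 fold change (393P_ZEB1 over 393P_vector) of each tested gene of 5 lists, where filled circles passed an adjusted p under 0.05 and the vertical bar is the median of the list. Repressors and described targets spread to both sides of 0 with medians of 0.13 and 0.30, and 4 activators lie below -2.

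The genes whose pattern was most like the family sum over the 6 samples, by Pearson's r of log2(CPM + 0.5) among tested features of at least 1 CPM on average, were Vnn1, a pantetheinase (r = 0.9999), Mpzl2 (0.9996), Ocln, which encodes the tight junction protein occludin (0.9994), Tnfrsf21 (0.9994) and Peg10 (0.9994). All 5 were lower in 393P_ZEB1 cells. Of 11737 features compared, 1027 had r over 0.95, since the 6 samples fall into 2 groups and share their libraries, and the order is a description only.

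Facts of the whole series that touch these values are few. Of the epithelial markers, 9 of 10 were lower in 393P_ZEB1 cells and 5 of 5 mesenchymal markers were higher, against 19.3% lower and 18.3% higher over all features tested. Cdh1 (162 ± 61.1 to 9.51 ± 0.718 CPM) and Cdh2 (46.8 ± 9.82 to 193 ± 10.2 CPM) are examples. Cdh2 lies on chromosome 18, as Zeb1 does, where the median log2 fold change was 0.64. Lung lineage markers were near 0 in both groups (summed 0.0510 to 0.187 CPM), and markers of immune, endothelial and fibroblast cells summed to 2.62 to 4.49 CPM in vector and 1.80 to 2.07 CPM in ZEB1 samples, with 0 of 4 tested called. Features of chromosome Y had 5929 to 10837 counts in vector samples and 73 to 82 in ZEB1 samples, and the part of such a difference in chromosome content was not tested. Vector replicate 3 stood apart, with 9.95% and 10.8% of features at least 2-fold from vector replicates 1 and 2, against 2.09% to 2.32% for the other pairs within a group. Without it, Mir200b (26 and 29 counts against 0) and Mir200c (70 and 78 counts against 1, 0 and 0) kept the same contrast.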

How the data were processed

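Total RNA of 6 samples (3 393P_vector, 3 393P_ZEB1) was sequenced on SOLiD. The authors deposited 1 table per sample with raw counts per RefSeq feature and, from these, RPKM values, which were read only to check the counts. Coordinates equal RefSeq on GRCm38, and the aligner and counting program are not given in the sources used here. Deposited hairpin lengths, used for CPM per kb, are 1 base short of the RefSeq length. Samples were grouped by their labels, and none was left out.

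From the counts, edgeR 4.0.16 (R 4.3.3) was run with TMM factors, filterByExpr (minimum count 10), a robust quasi-likelihood fit on condition and Benjamini-Hochberg adjustment over 13892 features, with a threshold of 0.05. The test was tried on simulated data with known changes. Exact permutation tests, exact conditional binomial intervals and Wilson intervals (95%) were made in SciPy 1.17.1, with a floor of 3 counts over a group. Alternatives were DESeq2 1.42.0 (Wald test, and its size factors within edgeR), no filter, a replicate block, other pseudocounts and windows, and each sample left out. Total counts of 54442450 to 79158012 per library set the precision for hairpins of 0 to 125 counts. No 2 libraries of a group agreed within sampling noise (chi-square per degree of freedom 21.3 or more).

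The members, lists and tests were chosen with earlier results of these data known. Genes were named as the 5 hairpins, Zeb1, Zeb2, Kif13a, Ap1s2, up to 3 called members of each list with the largest change in each direction, the nearest feature on each side of a cluster, and the 5 features most like the family sum. Genes named after their values were seen were Fam132a, Eno2, Tpi1, Atn1, Emg1, Mir669i, Mir155, Mir182, Mir183, Mir34a, Mir206, Elf3, Cd274, Drosha, Dgcr8, Ntrk2, Qk, Cdh1 and Cdh2. Argonaute and uridylyltransferase genes were matched through the older symbols of the files. Sequences were read from RefSeq tables of GRCm38.p6 and from GENCODE M21 transcripts.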

Additional observations from a re-analysis of the deposited data

How the results depend on the processing

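The calls for Mir200b, Mir200c, both cluster sums and the family sum kept their direction and their side of the threshold under every alternative run. DESeq2 and the replicate block were among these runs. Counts of these hairpins and sums were at or next to 0 in every ZEB1 library. They therefore had to differ, and the unchanged calls carry no weight as a check. Leaving out 1 sample gave log2 fold changes of -8.18 to -7.77 for Mir200b, -9.42 to -6.91 for Mir200c, -8.81 to -8.40 for the chromosome 4 sum, -9.42 to -6.05 for the chromosome 6 sum and -10.10 to -6.73 for the family sum. Of 229 alternative values in all, 203 stayed within the limits set for them, 23 moved and 3 reversed. The reversed value was the difference between the clusters, 0.0418 in the report, which was -0.198 with a pseudocount of 1 and ran from -0.732 to 0.429 with 1 sample left out. It rests on 2 ZEB1 counts.

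Without a filter, 1 other EMT hairpin was lower in place of 0, 3 processing genes were higher in place of 5, and 2 neighbours of the chromosome 4 cluster were lower in place of 1. Within 50 kb of that cluster 0 were lower, and within 250 kb 6 were lower and 1 was higher. Within 250 kb of the chromosome 6 cluster 10 were lower in place of 6. With 1 sample left out, higher calls ran from 2 to 5 for the other EMT hairpins, 0 to 2 for the activators and 1 to 6 for the processing genes, and lower calls ran from 1 to 2 for the repressors and 1 to 4 for the processing genes. Over all features, higher calls ran from 1861 to 3700 and lower calls from 1784 to 3776.

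Samples that share a replicate number did not deviate together (r of 0.195, -0.126 and -0.0276 for numbers 1, 2 and 3), and not every sample correlated best with its own number. With the replicate block, 2180 features were higher and 2256 lower, against 2539 and 2679 without it. The block gave log2 fold changes of -8.05 for Mir200b and -7.43 for Mir200c, and 3 processing genes higher in place of 5. Depth limits Mir141 and the comparison of the clusters.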
